A study of Mus musculus with 4 samples.

Results

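Macrophages sense sugars on microbes and on dying cells through C-type lectin receptors, surface proteins built around a calcium-dependent lectin fold or a relative of it. Here 10 such genes were followed, chosen by symbol as C-type lectin receptors of macrophages: Mrc1, Clec7a, Clec4d, Clec4e, Clec4n, Clec5a, Clec10a, Mgl2, Clec12a and Cd209a. All 10 were found among the 23284 gene symbols of the deposited files. The cells were primary macrophages grown in culture from the bone marrow of wild-type mice, whose strain and age the sources used here do not give. Every culture, controls included, was first stimulated with lipopolysaccharide (LPS), a bacterial cell wall component, at 1 µg/ml for 1 h. Culture then went on for 24 h with recombinant mouse galectin-1, whose dose the sources used here do not give, or with phosphate-buffered saline (the vehicle). There were 2 libraries in each group. All 4 had seen LPS, so the effect of LPS on the receptors cannot be read from these data.

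The receptors fall into several kinds. Clec4e (Mincle), which binds mycobacterial cord factor, Clec4d (MCL), its partner, and Clec4n (dectin-2), which binds fungal mannans, signal through the Fc receptor gamma chain. Clec5a (MDL-1) uses the adaptor DAP12, while Clec7a (dectin-1), the beta-glucan receptor, carries its own activating motif, and these routes meet at the kinase Syk and the adaptor Card9. Clec12a (MICL) is an inhibitory receptor. Mrc1, the mannose receptor, and Clec10a and Mgl2, the galactose-type lectins, take up glycoproteins, and Cd209a is a mouse relative of DC-SIGN. Galectin-1 also binds galactosides but belongs to a separate lectin family with no calcium requirement.

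Positions are those of RefSeq on GRCm38.p6, which is the assembly behind mm10. Of the 10 genes, 6 lay on chromosome 6. Clec4n (123229843-123247024), Clec4d (123262107-123275268) and Clec4e (123281789-123289871) lay side by side within 60.03 kb, and Clec4d and Clec4e faced each other with 6.52 kb between their 3′ ends. Clec12a (129349783-129365303) and Clec7a (129461591-129472785) lay within 123 kb of each other, and Clec5a (40574898-40585805) stood apart. Mgl2 (70130125-70137542) and Clec10a (70166623-70170836) were neighbours on chromosome 11. Mrc1 (14229414-14332023) was on chromosome 2 and Cd209a (3743395-3748984) on chromosome 8.

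The promoters of Clec4e and Clec4d, the most abundant of these transcripts, and of Mrc1, the receptor with the smallest p-value below, are shown with 250 bases before and 50 after the RefSeq start site, 5′ to 3′ on the strand of the gene. Capitals mark matches on either strand to 7 motif spellings: GGANTTTCC for NF-kB, TTGCNNAA for C/EBP, GAGGAA for PU.1, TGANTCA for AP-1, TTCNNNGAA for STAT, GAAANNGAA for interferon response elements and TATAAA for a TATA box.
Clec4e, chr6:123289822-123290121, minus strand: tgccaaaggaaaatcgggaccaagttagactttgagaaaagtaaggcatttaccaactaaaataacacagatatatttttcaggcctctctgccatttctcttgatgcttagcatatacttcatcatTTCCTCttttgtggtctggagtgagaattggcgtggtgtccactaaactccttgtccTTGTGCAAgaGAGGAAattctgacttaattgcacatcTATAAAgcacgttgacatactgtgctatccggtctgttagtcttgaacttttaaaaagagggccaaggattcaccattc
Clec4d, chr6:123261857-123262156, plus strand: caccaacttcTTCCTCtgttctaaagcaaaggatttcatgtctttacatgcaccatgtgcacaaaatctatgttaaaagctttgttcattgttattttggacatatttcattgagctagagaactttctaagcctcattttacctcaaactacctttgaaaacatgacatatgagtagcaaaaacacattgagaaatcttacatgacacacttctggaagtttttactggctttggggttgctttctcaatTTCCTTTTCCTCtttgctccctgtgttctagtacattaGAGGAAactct
Mrc1, chr2:14229164-14229463, plus strand: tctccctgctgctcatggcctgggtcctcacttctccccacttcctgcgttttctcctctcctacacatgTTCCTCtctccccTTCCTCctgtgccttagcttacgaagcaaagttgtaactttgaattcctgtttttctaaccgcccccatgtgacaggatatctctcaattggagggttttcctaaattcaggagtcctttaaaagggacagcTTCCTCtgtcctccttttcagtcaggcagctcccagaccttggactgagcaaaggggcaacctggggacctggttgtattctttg

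Positions in these windows are counted from 0 at the first transcribed base. The Clec4e window held TTGTGCAA, a C/EBP match on the minus strand, at -66 to -59, a PU.1 match beginning at -56 and another at -123, and TATAAA at -29 to -24. The Clec4d window held 3 PU.1 matches, at -240, 7 and 39, and an interferon-type match, TTCCTTTTC, from 1 to 9 whose end overlaps the PU.1 match at 7. The Mrc1 window held 3 PU.1 matches, at -180, -167 and -35, and no other match. Among 32544 RefSeq promoter windows of the same length, 10.8% held the C/EBP spelling, 28.1% PU.1, 1.26% NF-kB, 7.79% AP-1, 8.33% STAT, 8.53% the interferon-type spelling and 13.6% TATAAA. The matches are descriptions of the letters. Sequences were found for 8 of the 10 genes, and Clec10a and Clec4n had no entry in the table used.

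Values are FPKM, fragment numbers divided by transcript length and by the size of the library, so levels can be compared between genes. The library totals were 541138 to 557661 FPKM and 13636 to 13785 symbols lay above 0. The absolute depth is unknown. By the FPKM steps of low genes, depths ran from 0.872 to 1.03 of that of vehicle replicate 1. All 10 macrophage markers examined were above 1 FPKM, among them Adgre1 (F4/80), with 444 FPKM in the vehicle and 480 FPKM in the galectin-1 libraries.

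The levels of the 10 receptors spanned a wide range. Over the 4 libraries the means were 596 FPKM for Clec4e, 478 for Clec4d, 215 for Clec12a, 71.2 for Mrc1, 22.3 for Clec7a, 9.79 for Clec4n, 8.49 for Clec5a and 3.83 for Clec10a. Mgl2 and Cd209a lay at 0.0670 and 0.0286 FPKM. Clec4e ranked 170 and Clec4d 213 by mean level among all 23284 symbols. The libraries of neighbours in this order did not overlap, except for Clec4n with Clec5a and for Mgl2 with Cd209a. Clec4e, Clec4d and Clec12a together held 91.6% to 92.0% of the summed FPKM of the 10 genes in every library. That sum was 1340 and 1319 FPKM in the vehicle libraries and 1510 and 1447 FPKM in the galectin-1 libraries.

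**Figure D1:**
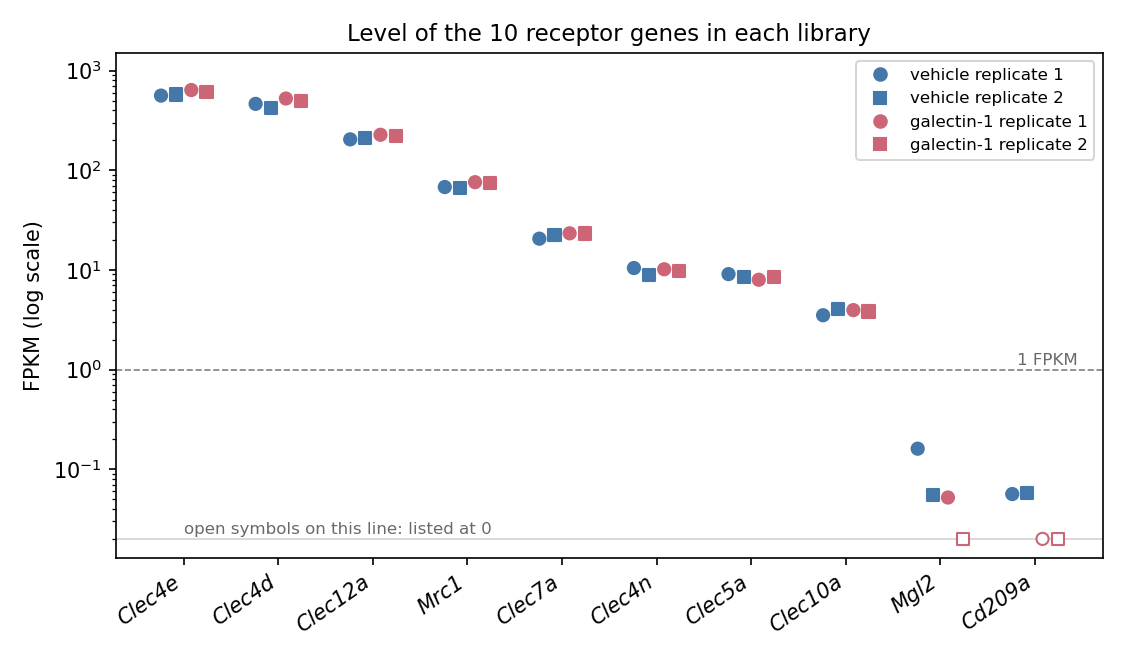
FPKM of the 10 receptor genes on a log axis, ordered by mean level, with 1 point per library (blue, vehicle; red, galectin-1; circles, replicate 1; squares, replicate 2) and open symbols for values listed at 0. Clec4e and Clec4d lie highest, at means of 596 and 478 FPKM, and Mgl2 and Cd209a lie far below the dashed line at 1 FPKM.

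The comparison of galectin-1 with vehicle asks how the lectin alters the receptor repertoire of LPS-stimulated macrophages. Of the 10 receptors, 8 reached a mean of 1 FPKM and were tested. None of the 8 passed the threshold in limma fitted over all genes, a Benjamini-Hochberg adjusted p under 0.05, where 1.19% of the 9380 tested genes did (0.608% higher and 0.586% lower). The lowest adjusted p among the receptors was 0.0831. At an unadjusted p under 0.05, 4 of the 8 (Mrc1, Clec4d, Clec4e and Clec12a) were higher with galectin-1 and none was lower, against 12.2% higher and 11% lower of all tested genes. That count was 2 in limma without the variance trend. Fold changes were differences of log2(FPKM + 1), positive for 7 of the 8 and for 50.7% of all tested genes. The median over the 8 receptors was 0.11, beside 0.00237 for all tested genes. Whether the 2 libraries of a group are separate cultures or animals is not stated in the labels, so the p-values reflect the spread among these libraries alone, and that spread may be technical.

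The partners Clec4e and Clec4d were considered first. Clec4e had 561 and 576 FPKM with vehicle and 638 and 609 FPKM with galectin-1. Both galectin-1 libraries lay above both vehicle libraries, by 33.7 FPKM at the closest. The group values were 568 ± 10.5 and 624 ± 19.9 FPKM (SD, n = 2 per group), with a log2 fold change of 0.13 (standard error 0.03, 95% interval 0.05 to 0.22, limma adjusted p = 0.106). Quantile normalization lowered that value to 0.08. Clec4d had 463 and 425 FPKM with vehicle and 524 and 499 FPKM with galectin-1. The groups again did not overlap, but their closest values were 35.4 FPKM apart and the vehicle libraries 38.5 FPKM. Clec4d had the highest fold change of the 8 tested receptors, 0.20 (standard error 0.05, 95% interval 0.08 to 0.33, limma adjusted p = 0.0996), with group values of 444 ± 27.2 and 511 ± 18.1 FPKM (SD, n = 2 per group). The ratio of Clec4e to Clec4d was 1.21 in vehicle replicate 1, 1.22 in each galectin-1 library and 1.36 in vehicle replicate 2, so that replicate differed more from the other vehicle library than the groups did.

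Clec4n, the dectin-2 gene next to them, was far lower, and its groups overlapped. It had 10.4 and 8.91 FPKM with vehicle and 10.1 and 9.68 FPKM with galectin-1, both galectin-1 values lying between the vehicle values. The log2 fold change was 0.04 (95% interval -0.17 to 0.24, limma adjusted p = 0.839). That interval holds 0 and also the fold changes of Clec4e and Clec4d. Leaving out vehicle replicate 2 gave -0.07, and leaving out vehicle replicate 1 gave 0.14.

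Clec7a, the beta-glucan receptor, had 20.6 and 22.3 FPKM with vehicle and 23.3 and 23.2 FPKM with galectin-1. The groups did not overlap, but the vehicle libraries differed from each other by more than the closest values of the 2 groups did. The log2 fold change was 0.11 (95% interval -0.02 to 0.25, limma adjusted p = 0.275), and it fell to 0.06 without vehicle replicate 1. Clec5a, the DAP12-coupled receptor, had 9.07 and 8.44 FPKM with vehicle and 7.96 and 8.48 FPKM with galectin-1. Here the groups overlapped, and this was the single tested receptor with a negative value, -0.08 (95% interval -0.25 to 0.09, limma adjusted p = 0.521). Leaving out replicate 1 of the vehicle or of galectin-1 gave -0.03 and -0.04, and leaving out replicate 2 of either gave -0.13 and -0.12.

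The inhibitory receptor gene Clec12a had 204 and 209 FPKM with vehicle and 227 and 219 FPKM with galectin-1. Its groups did not overlap, with means of 206 ± 3.19 and 223 ± 5.35 FPKM (SD, n = 2 per group). The log2 fold change was 0.11 (95% interval 0.03 to 0.19, limma adjusted p = 0.128). The activating genes Clec4e and Clec4d and this inhibitory gene thus had differences of like sign and overlapping intervals, whose mutual difference was not tested.

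Among the uptake receptors, Mrc1 had 67.8 and 66.5 FPKM with vehicle and 75.9 and 74.7 FPKM with galectin-1. The gap between the groups was wider than either replicate difference, and Mrc1 had the smallest p of the 8 tested receptors, ranking 393 among the 9380 tested. Its log2 fold change was 0.16 (standard error 0.03, 95% interval 0.08 to 0.25, limma adjusted p = 0.0831). Clec10a, the first galactose-type lectin, had 3.51 and 4.02 FPKM with vehicle and 3.95 and 3.83 FPKM with galectin-1. Both galectin-1 values lay within the vehicle range, with a log2 fold change of 0.04 (95% interval -0.18 to 0.26, limma adjusted p = 0.827). Leaving out vehicle replicate 1 gave -0.04, and leaving out vehicle replicate 2 gave 0.12.

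Mgl2, the other galactose-type lectin, and Cd209a were near the limit of measurement and were not tested. Mgl2 had 0.161 and 0.0553 FPKM with vehicle, 0.0520 FPKM in galectin-1 replicate 1 and was listed at 0 in galectin-1 replicate 2. Corrected for relative depth, the first 3 of these values stood, within 0.001, at 3, 1 and 1 times the smallest, the spacing that single fragments would give. The vehicle and galectin-1 values of Mgl2 did not overlap as deposited, but vehicle replicate 2 and galectin-1 replicate 1 were equal after the depth correction. Cd209a had 0.0563 and 0.0581 FPKM with vehicle, equal after the same correction, and was listed at 0 in both galectin-1 libraries. No fold is given for either gene, since so few fragments cannot show a difference.

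Near-identical copies could divide reads, so 50-base stretches of the GENCODE transcripts of each receptor were searched in the transcripts of all other genes. None was shared for Mrc1, Clec7a, Clec4d, Clec4e, Clec5a and Cd209a, and 0.402% and 0.686% were shared for Clec12a and Clec4n. Clec10a shared 8.49% of its stretches with Mgl2, and Mgl2 shared 12.2% of its own with Clec10a. Their values are therefore less certain than the others, since the sources used here do not say how the authors assigned such reads. Mir511, within an intron of Mrc1 on the same strand and listed at 0, was the sole annotated gene overlapping any of the 10.

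**Figure D2:**
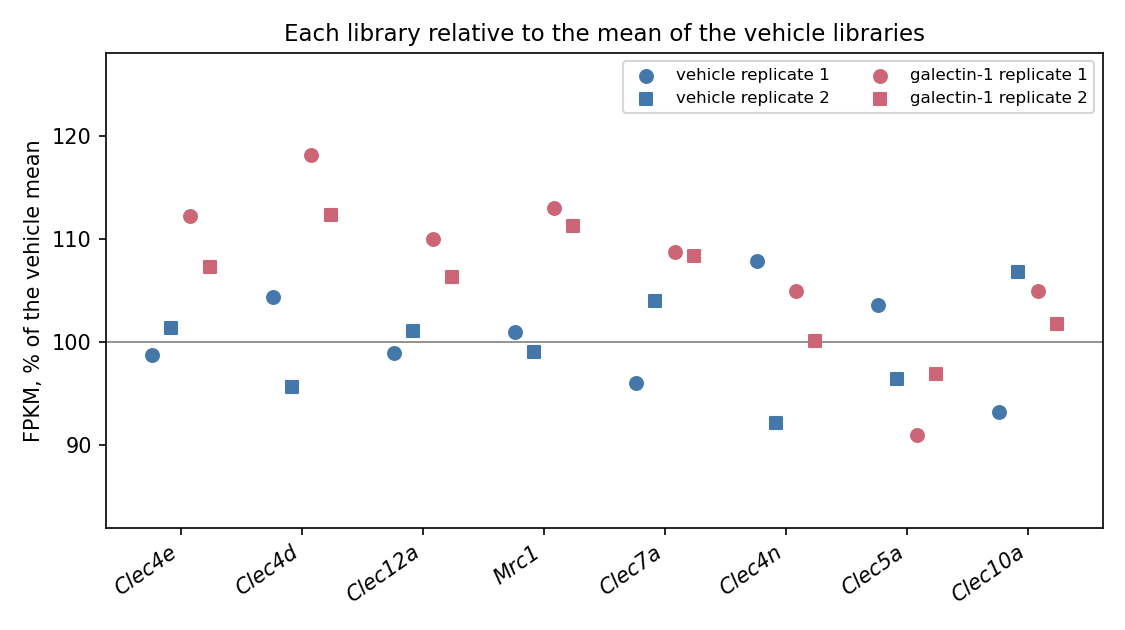
FPKM of each library as a percentage of the mean of the vehicle libraries, for the 8 tested receptor genes, with 1 point per library (blue, vehicle; red, galectin-1). Both galectin-1 points lie above both vehicle points for Clec4e, Clec4d, Clec12a, Mrc1 and Clec7a, and the groups overlap for Clec4n, Clec5a and Clec10a.

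The groups did not overlap, with galectin-1 higher, for 5 of the 8 tested receptors, and for 29.1% of all tested genes. None was lower without overlap, against 26.2% of all tested genes. The differences were small in size. The group mean with galectin-1 differed from the vehicle mean by -6.09% for Clec5a, the lowest, and by 15.2% for Clec4d, the highest. The 95% intervals of all 8, taken singly, lay between 0.841-fold and 1.25-fold on the log2(FPKM + 1) scale. Larger changes in either direction fell outside these intervals, which come from this fit and from 2 libraries in each group.

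**Figure D3:**
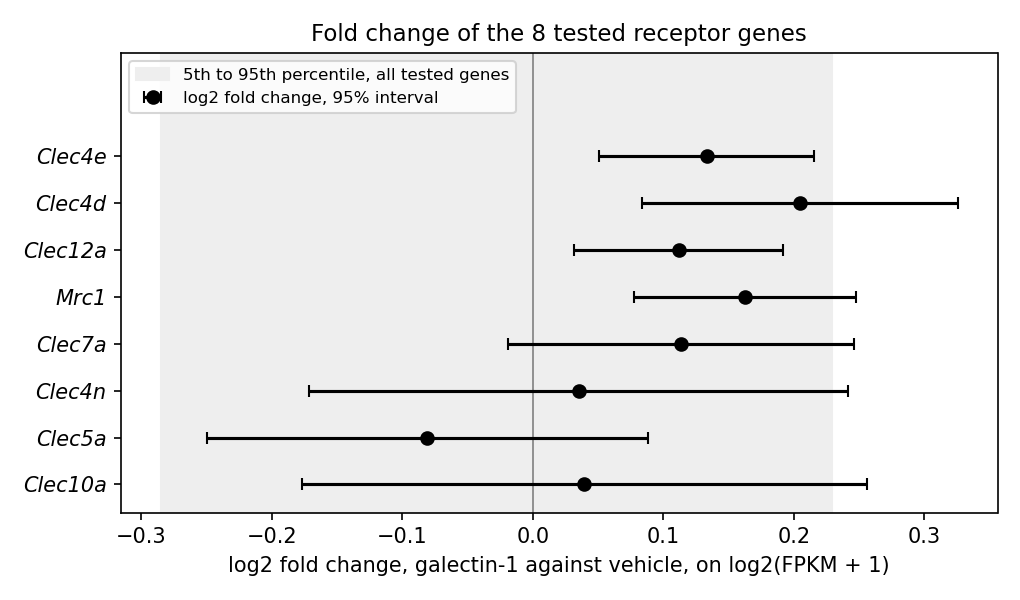
Log2 fold change of galectin-1 against vehicle on log2(FPKM + 1) for the 8 tested receptor genes, with 95% intervals from limma and, in grey, the 5th to 95th percentile of all tested genes. The intervals of Clec4e, Clec4d, Clec12a and Mrc1 lie above 0, and those of the other 4 include it.

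Markers of the macrophage itself had differences of the same size as the receptors. Of 10 macrophage markers, 8 had positive fold changes, against 50.7% of all tested genes, and none passed the threshold in limma. At an unadjusted p under 0.05 in limma, 6 were higher and 1 lower, against 12.2% and 11% of all tested genes. Without overlap of the groups, 8 were higher and 2 lower, against 29.1% and 26.2% of all tested genes. The median of the markers was 0.11, equal to that of the receptors at this precision. Their summed level was 9437 to 9439 FPKM with vehicle and 10209 to 10230 FPKM with galectin-1. Most of that sum came from Lyz2, with 5701 FPKM with vehicle and 6246 FPKM with galectin-1. Csf1r, the receptor of the macrophage growth factor, had 365 ± 2.999 and 406 ± 0.216 FPKM (SD, n = 2 per group; log2 fold change 0.15, limma adjusted p = 0.0614). Mertk, a receptor for dying cells, ran the other way with 19.1 and 16.9 FPKM (-0.17, limma adjusted p = 0.167). The part of this shift in the receptor values was not tested, and in bulk RNA more cells of a type and more RNA per cell cannot be told apart.

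Some receptors are also made by other myeloid cells, Clec4d, Clec4e, Clec5a and Clec12a by neutrophils and Clec10a, Mgl2 and Cd209a by dendritic cells. Of 11 neutrophil markers found, Elane, Ltf, Ngp and Retnlg were at 0 in all libraries, 8 lay below 1 FPKM, and the summed level of 87.5 and 91.3 FPKM with vehicle and 85.9 and 84.8 FPKM with galectin-1 came almost entirely from Csf3r. Of 11 dendritic cell markers, 6 lay below 1 FPKM, including Flt3 at 0 to 0.0478 FPKM. Their sum, 683 to 720 FPKM with vehicle and 665 to 711 FPKM with galectin-1, came mostly from Bst2, which LPS-treated macrophages also express. Of the 5 dendritic cell markers tested, 1 had a positive fold change, against 50.7% of all tested genes, and the median was -0.12. Their part in the receptor values was not tested. Fscn1 (fascin), which bundles actin in mature dendritic cells, fell. It had 11.5 ± 0.256 FPKM in the vehicle and 8.01 ± 0.245 FPKM in the galectin-1 libraries (SD, n = 2 per group, log2 fold change -0.47, limma adjusted p = 0.0425). Its call was lost without any 1 of the 4 libraries (limma adjusted p from 0.140 to 0.173), with no filter on low values (0.130) and in limma without the variance trend (0.138).

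Of 9 fibroblast markers, 4 lay below 1 FPKM. Their summed level was 15.6 FPKM in each vehicle library and 18.7 and 19.3 FPKM with galectin-1. All 5 that were tested had positive fold changes, against 50.7% of all tested genes, with a median of 0.23. None of these 5 passed the threshold in limma. The part of the fibroblast markers in the receptor values was not tested. Of 8 T and NK cell markers found, 7 lay below 1 FPKM, Cd3e, Cd3g, Gzma and Nkg7 were at 0, and the sums were 3.72 and 4.24 FPKM with vehicle and 3.59 and 3.68 FPKM with galectin-1. Of 5 B cell markers, 4 lay below 1 FPKM and the sums were 2.93 and 3.41 FPKM with vehicle and 2.62 and 3.60 FPKM with galectin-1.

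The receptors were set beside 45 other genes of the C-type lectin superfamily. Of the 16 that were tested, none rose, 1 fell and 15 did not pass, where 0.608% of all tested genes rose and 0.586% fell. The median log2 fold change of the 16 was 0.00116. The most abundant were Cd69, an activation antigen, at 936 FPKM with vehicle and 978 FPKM with galectin-1, and Clec4a1, a relative of dectin-2, at 335 and 336 FPKM. The gene that fell was Sele, encoding E-selectin, an adhesion lectin best known from endothelium. It had 13.7 and 13.9 FPKM with vehicle and 10.1 and 10.4 FPKM with galectin-1, with no overlap, and a log2 fold change of -0.39 (standard error 0.05, limma adjusted p = 0.0446). The call was lost without any 1 of the 4 libraries (limma adjusted p from 0.146 to 0.177), after quantile normalization (0.0551), with no filter on low values (0.135) and in limma without the variance trend (0.138). Selp, encoding P-selectin, had 4.61 and 3.09 FPKM (-0.46, limma adjusted p = 0.106) and did not pass. Klrk1, the NKG2D receptor gene, had 3.62 and 2.56 FPKM (-0.38, limma adjusted p = 0.0861), and Clec4b1 had 2.41 and 3.14 FPKM (0.28, limma adjusted p = 0.169). Of the 29 genes not tested, 12 were at 0 in all libraries.

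On chromosome 6, abundance changed sharply between neighbours. Among protein-coding genes within 200 kb of the Clec4n to Clec4e span, Clec4a2, an inhibitory relative, had a mean of 20.4 FPKM over the 4 libraries, Clec4b1 2.77 FPKM, and Clec4b2 was at 0 beside Clec4n. Around Clec12a and Clec7a, Clec1a, Clec9a, Clec12b and Clec1b, which lie between them, had means of 0.0246 to 0.297 FPKM. On the outer side of Clec12a the nearest gene, Clec2m, was at 0. The outer neighbours Cd69, Clec2d and Olr1 had 957, 156 and 6.97 FPKM. None of the tested genes in either stretch passed the threshold in limma, 5 around the Clec4 genes and 7 around Clec12a and Clec7a, the receptors included. Log2 fold changes in the first stretch ran from 0.04 for Clec4n to 0.28 for Clec4b1. In the second they ran from -0.38 for Klrk1 to 0.13 for Gabarapl1, an autophagy gene. Over all tested genes 0.608% rose, and around Mgl2 and Clec10a on chromosome 11, 1 of the 10 tested genes did. This was Phf23, which encodes a PHD finger protein, with 26.6 ± 1.18 FPKM in the vehicle and 36.4 ± 0.518 FPKM in the galectin-1 libraries (SD, n = 2 per group; log2 fold change 0.44, limma adjusted p = 0.0351). Its call was lost without any 1 of the 4 libraries (limma adjusted p from 0.0693 to 0.166), with no filter (0.130) and without the variance trend (0.138).

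**Figure D4:**
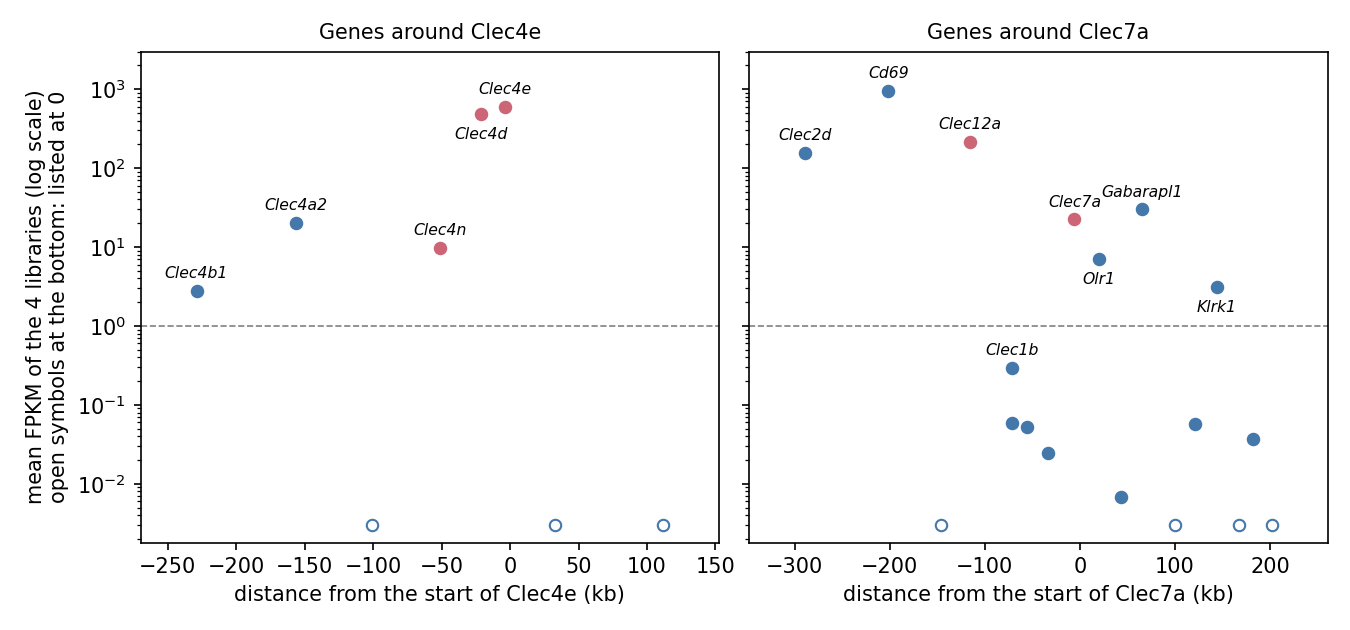
Mean FPKM over the 4 libraries (log axis) of protein-coding genes by the distance of their midpoint from the start of Clec4e (left) and Clec7a (right), with the receptors followed here in red, other genes in blue and open symbols for genes listed at 0. Clec4e and Clec4d stand together at the top on the left, and the 4 genes between Clec12a and Clec7a lie below the dashed line at 1 FPKM.

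The list of adaptors and kinases that these receptors signal through held 27 genes. Of the 26 that were tested, none rose, 1 fell and 25 did not pass, where 0.608% of all tested genes rose and 0.586% fell. The median log2 fold change of the 26 was -0.01. The groups did not overlap for 16 of the 26, 9 higher and 7 lower with galectin-1. Over all tested genes, 29.1% were higher and 26.2% lower without overlap. Fcer1g, the Fc receptor gamma chain, had 1480 ± 4.99 and 1472 ± 22.2 FPKM (SD, n = 2 per group; -0.01, limma adjusted p = 0.885). Tyrobp, encoding DAP12, had 1737 and 1765 FPKM (0.02, limma adjusted p = 0.616), Syk had 163 and 168 FPKM (0.05, limma adjusted p = 0.404), and Card9 was low at 4.90 and 4.49 FPKM (-0.10, limma adjusted p = 0.596). The gene that fell was Fgr, a Src-family kinase of myeloid cells, with 27.4 and 27.3 FPKM with vehicle and 20.2 and 18.5 FPKM with galectin-1. Its log2 fold change was -0.48 (standard error 0.06, limma adjusted p = 0.0371), and the call was lost without any 1 of the 4 libraries (limma adjusted p from 0.0832 to 0.159), with no filter (0.130) and without the variance trend (0.138). Bcl10, which acts with Card9, had 61.6 and 71.1 FPKM (0.20, limma adjusted p = 0.0638). Vav1, an exchange factor downstream of Syk, had 55.0 and 62.7 FPKM (0.19, limma adjusted p = 0.0749).

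None of the 10 inhibitory phosphatase and ubiquitin ligase genes passed the threshold. At an unadjusted p under 0.05 in limma, 5 were higher and 2 lower, against 12.2% and 11% of all tested genes. The median log2 fold change was 0.06. Dok3, an inhibitory adaptor, had 8.43 and 6.89 FPKM (-0.26, limma adjusted p = 0.0986). Ptpn11, encoding the phosphatase SHP-2, had 18.1 and 20.9 FPKM (0.20, limma adjusted p = 0.106).

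Mrc1, Clec10a and Mgl2 are known targets of interleukin 4, so 17 other genes of that response were examined. Of these, 7 had means below 1 FPKM and were not tested, namely Arg1, Chil3, Retnla, Ccl17, Irf4, Pdcd1lg2 and Cd163. The other 10 were tested and none passed, with a median log2 fold change of 0.03. At an unadjusted p under 0.05 in limma, 3 were higher and 2 lower, against 12.2% and 11% of all tested genes. Msr1, a scavenger receptor, had 313 and 342 FPKM (0.13, limma adjusted p = 0.0902), a difference close to that of Mrc1. Il1rn, the interleukin 1 receptor antagonist, had 733 and 811 FPKM (0.15, limma adjusted p = 0.0893). The tested chemokine genes ran the other way. Ccl24 had the smallest p of the list, with 3.68 and 2.05 FPKM (-0.62, limma adjusted p = 0.0589), and Ccl22 had 9.04 and 7.34 FPKM (-0.27, limma adjusted p = 0.0911).

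**Figure D5:**
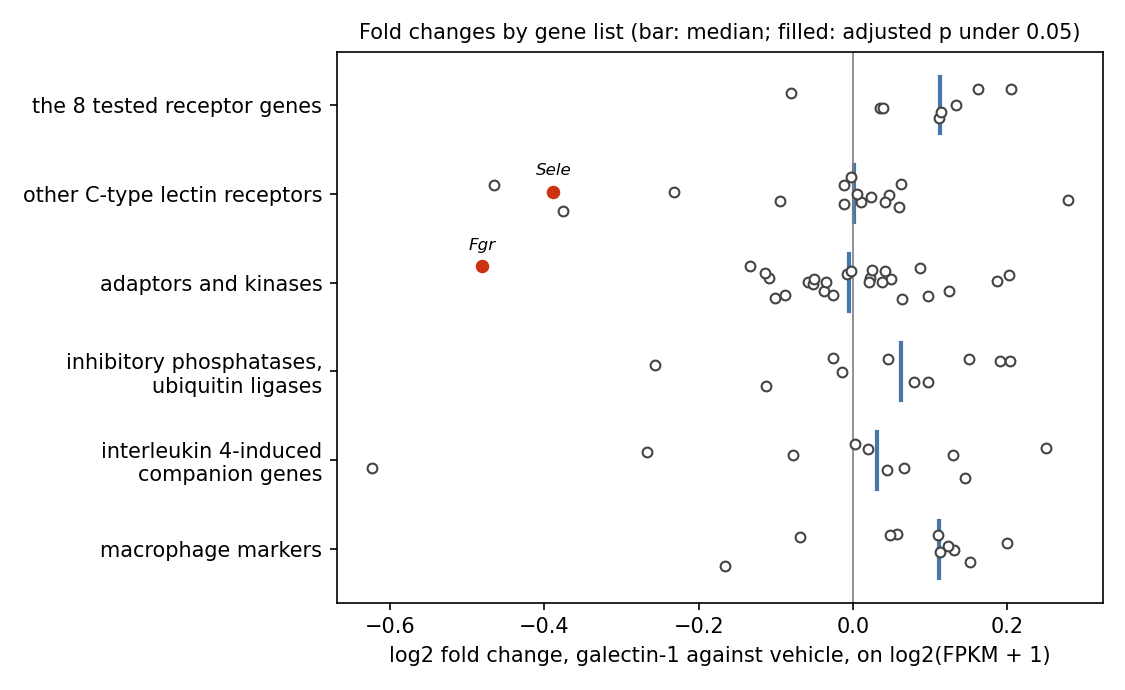
Log2 fold change of galectin-1 against vehicle on log2(FPKM + 1) for the tested genes of the 6 lists named on the axis, 1 point per gene (the markers of other cell types are not drawn), with the median as a blue bar and genes with an adjusted p under 0.05 filled in red (vertical scatter within a list carries no value). The medians of the 8 receptors and of the macrophage markers are both 0.11, and the filled points in these 6 lists are Sele and Fgr, both lower with galectin-1.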

How the data were processed

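Column-purified RNA was made into stranded poly(A) libraries, per the labels' protocols. The authors deposited FPKM values by gene symbol, in 1 file for each library. Cufflinks 2.2.1, TopHat2 2.0.13, SAMtools 0.1.19, Bowtie2 2.2.3 and mm10 are named in the submitters' processing notes, without roles. The sources used here do not give the annotation or read filters. Groups and replicate numbers came from the titles.

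FPKM were taken as log2(FPKM + 1) with no further scaling. The 9380 genes whose mean reached 1 FPKM were fitted with limma 3.58.1 in R 4.3.3 (empirical Bayes with a trend, 2 residual and 3.89 prior degrees of freedom, all 4 libraries), with 2-sided p-values adjusted over all of them at 0.05. With 2 libraries a group, no permutation p can be under 0.333, so none was used. The fit was tested on simulated data. Of 155 symbols in the comparison lists, 153 were found, older symbols included. The receptors and lists were chosen with earlier results of these data known. From each list, genes past the threshold and up to 4 more of smallest p could be named (3 for marker lists), along with other lectin receptors by their level. Fcer1g, Tyrobp, Syk and Card9, and chromosomal neighbours outside the lists, were named in addition, for their known role or place. Mertk, Csf3r, Bst2, Flt3, the untested genes of the interleukin 4 response and the markers at 0 were named after their values were seen. 1 gene that the rule allows is not reported here. The neighbour, shared-stretch and promoter searches were added after the values were seen. Relative depth came from the most frequent ratio among 1366 genes below 0.3 FPKM. Alternatives were other pseudocounts, filters and scalings, no trend, no small RNA entries, a replicate block and leaving out each library.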

Additional observations from a re-analysis of the deposited data

How the results depend on the processing

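Across 14 alternatives, 108 of 111 fold changes of the 8 tested receptors kept their sign and their side of the threshold. The other filters, no trend, no small RNA entries and the replicate block leave each fold change as it was. Under these alternatives only the side of the threshold could change. Clec10a became -0.0380 without vehicle replicate 1 and Clec4n -0.0678 without vehicle replicate 2. With 1 library left out, Clec10a ran from -0.0380 to 0.117 and Clec4n from -0.0678 to 0.138. No receptor passed under any alternative apart from the replicate block, where 1 did, Clec4d (log2 fold change 0.20, limma adjusted p = 0.0343; over its alternatives 0.0343 to 0.250). Same-numbered libraries did not deviate together (correlation 0.0114 across genes), so the numbers are not taken to pair the samples. The receptor median of 0.11 became 0.0813 after quantile normalization, 0.0898 after upper quartile scaling and 0.0943 to 0.135 when 1 library was left out. The count of receptors at an unadjusted p under 0.05, 4, was 2 without the trend, 3 after quantile normalization or upper quartile scaling and 3 to 5 when 1 library was left out. Counts over all genes, 57 higher and 55 lower, moved far more. They were 102 and 101 with a pseudocount of 0.01, 1 and 2 with no filter, 127 and 99 with the filter at 5 FPKM, 1 and 1 without the trend, 189 and 176 without small RNA entries and 123 and 117 with the replicate block. The higher count was 24 after quantile normalization (47 lower) and 27 after upper quartile scaling (44 lower), where increases made up a smaller share of calls. With 1 library left out, 6 to 12 were higher and 5 to 14 lower. The cause was not tested. Fewer samples leave fewer degrees of freedom in those fits. Depth in counts is unknown, which limits Mgl2 and Cd209a most.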
